A study of Glycine max with 10 samples.

Results

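The embryonic axis of soybean (Glycine max) after 24 hours of imbibition was compared with the axis of the dry seed, the last and the first point of a germination course. Behind the comparison stand 2 biological replicates at 24-HAI (hours after imbibition) and 2 of dry seeds, 4 of the 10 libraries of the series. The other 6 libraries (3, 6 and 12-HAI) were used only to place changes in time. A gene was called gained when it had at least 1 FPKM at 24-HAI and less in dry seeds, lost in the opposite case, and kept with at least 1 FPKM at both ends. By this limit 32637 of the 54154 genes in the table were transcribed at an end and 21517 were at neither. All axes came from cultivar BRS 284. The 24-HAI seeds germinated in Petri dishes on cotton wetted with water, at 28 ºC with equal hours of light and dark, and dry seeds were not imbibed. Each replicate held the axes of 20 seeds.

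The embryonic axis carries the root and shoot primordia, and in a legume seed it elongates while the cotyledons serve as the store. A dry seed holds transcripts made during maturation and desiccation, many of which are known to be degraded after water uptake while transcription resumes. Abscisic acid (ABA) maintains maturation and dormancy, whereas gibberellin, ethylene and brassinosteroids are known to promote germination and growth.

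The unit was FPKM, the number of fragments that map to a transcript, scaled for its length and for the size of the library. The deposited table pools the replicates into a single FPKM per gene at each time. Replicate spread and SD are thus unknown, and no difference was tested. The study states the mapped reads of each time point, with the fewest in dry seeds and the most at 24-HAI. Those totals were not used here. The part of this unequal depth in listed zeros, and in the balance of gained to lost genes, was not tested. The table itself holds no read counts per gene. The number of fragments behind an FPKM was not estimated from the totals, so it is unknown here and no interval is given. A gene was counted as up when its FPKM at 24-HAI was at least 2.4 times that in dry seeds and at least 1, and as down in the opposite case. These calls are limits of size, not of significance. FPKM are shares of a library: fewer cells of a type and less RNA per cell cannot be told apart, and neither can a change in the amount of total RNA. No identifier of the table matched the RefSeq gene table, and the sources used here give no marker identifiers, so the labelled tissue could not be checked against markers.

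The dry values dropped relative to the imbibed time points from a point along the genome, called a change of scale below. Over 17302 genes with a mean of at least 5 FPKM and no 0, the median log2 ratio of dry seeds to 3-HAI was 0.21 on chromosomes 1 to 12 and the first part of chromosome 13, and -0.82 from there to the end of chromosome 20. The step was 2.04-fold, and lay between genes that start at 16697698 and 16796926 on chromosome 13 (genome version 1.1). It took place within a single chromosome, and 24.2% of the variance of the ratio lay between its sides. Before the step, the medians of the 13 chromosomes or parts ranged between 0.20 and 0.24, and past it those of the 8 chromosomes or parts ranged between -0.88 and -0.80, with no overlap. The step was as large among genes under 10 FPKM (-1.05), between 10 and 100 FPKM (-1.03) and at 100 FPKM and over (-1.05). The same search in the later intervals found at most 0.14 on the log2 scale (3 to 6-HAI, 6 to 12-HAI and 12 to 24-HAI), and at most 0.03% of the variance. Genes past the step held 35.0% of the summed FPKM at 24-HAI, and between 35.9% and 36.3% at the other imbibed time points, against 21.2% in dry seeds. At 24-HAI 15.4% of genes past the step and 14.7% of those before it were listed at 0, against 29.5% past it and 24.8% before it in dry seeds. At 3-HAI these shares were 22.0% and 21.1%. The sides thus differed more in listed zeros in dry seeds, which a factor alone does not give. A factor leaves a 0 at 0, so the rescalings below do not restore these values. The ratio of 24-HAI to dry seeds carries this step, with chromosome medians between -0.71 and -0.54 before it and between 0.26 and 0.45 past it. Which side holds the scale of the other columns cannot be told from 1 value per time point, and the cause was not tested. Counts are therefore given for the whole table and on each side, and a ratio past the step may be lower by the factor 2.04 on the scale of the genes before it.

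**Figure D1:**
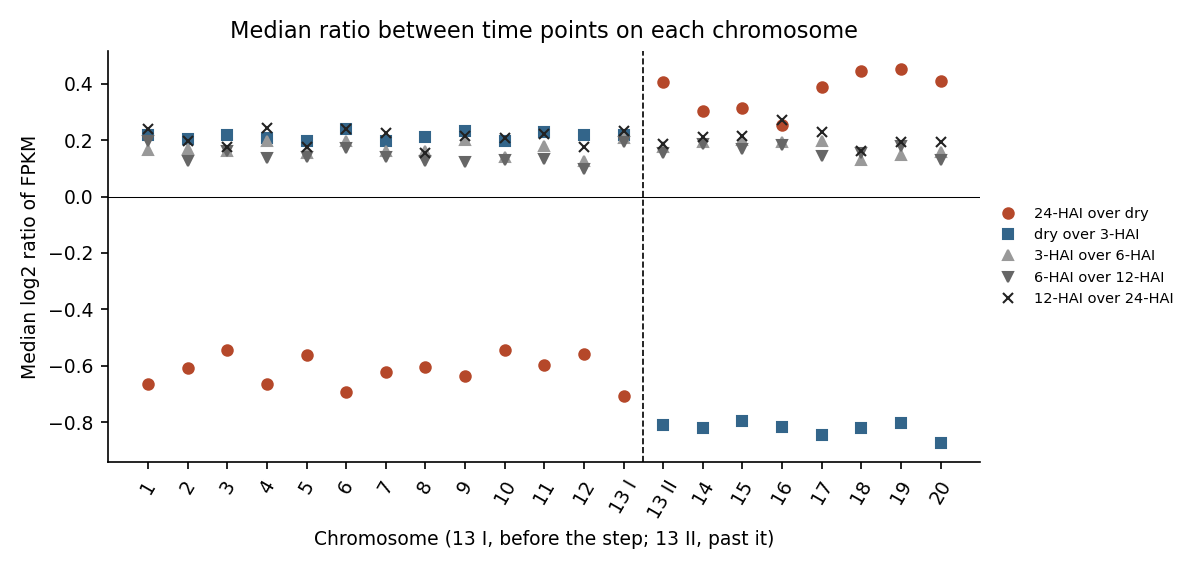
Median log2 ratio of FPKM (vertical axis) on each chromosome (horizontal axis, chromosome 13 divided at the dashed line) for 24-HAI over dry seeds and for each pair of consecutive time points; genes with a mean of at least 5 FPKM. Ratios with dry seeds shift by about 1 unit at the line (dry over 3-HAI has a median of 0.21 before it and -0.82 past it), whereas ratios among imbibed axes lie between 0.10 and 0.27 on both sides.

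Many more genes were gained than lost over germination. In all, 8555 genes (15.8% of 54154, and 26.2% of those with 1 FPKM at an end) were gained and 1556 (2.87% and 4.77%) were lost, while 22526 were kept. Up calls numbered 12853 (23.7% of all genes, 39.4% of those with 1 FPKM at an end) and down calls 7254 (13.4% and 22.2%). Before the step, 4747 of 20706 genes with 1 FPKM at an end were gained (22.9%) and 1096 lost (5.29%), with 7056 up (34.1%) and 5625 down (27.2%). Past the step, 3791 of 11834 such genes were gained (32%) and 434 lost (3.67%), with 5768 up (48.7%) and 1587 down (13.4%). Gains outnumbered losses, and up calls outnumbered down calls, on both sides. The balance of up to down was not stable, with 55.6% of calls up before the step and 78.4% past it. Raising the dry values past the step by its size gave 34.4% up and 27.5% down there, next to the shares before it. The size was measured between the same sides, so this closeness was largely built in and is not separate evidence. Over all genes 55.6% of calls were then up. Lowering the dry values before the step instead gave 78.7%. Under both changes 11248 of the 12853 up calls (87.5%) and 4257 of the 7254 down calls (58.7%) held, as did 7640 of the 8555 gained and 1125 of the 1556 lost genes. Raising could end only the 5768 up calls and 3791 gains past the step. Among them, 486 genes listed at 0 in dry seeds could not change. Lowering could end only the 5625 down calls and 1096 losses before it. All other calls held by construction, so these shares overstate how many of the calls at risk held. The share of calls that were up also moved with the scaling of the 2 columns as wholes. It was 63.9% as deposited, 81.0% after scaling both to the same sum, 52.0% after median-ratio scaling and 48.4% after quantile normalization. These 3 scalings shift the median log2 ratio, with no value added, by 0.79, -0.49 and -0.33. That median is over genes with 1 FPKM at an end and values above 0 at both ends in each setting.

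Many calls lay near the limit. Of the gained genes, 4448 (52.0%) were at 2 FPKM or more at 24-HAI and under 0.5 FPKM in dry seeds, and of the lost genes 431 (27.7%) showed the opposite pattern with the same margins.

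The transcript sum was spread over more genes at 24-HAI. The 100 most abundant genes held 12.4% of the summed FPKM at 24-HAI, against 30.2% in dry seeds, and 2000 genes made up 50% of the sum at 24-HAI, against 596 in dry seeds. The most abundant gene had 9799 FPKM at 24-HAI, against 40176 FPKM for the most abundant gene of dry seeds. Only 12 genes reached 1000 FPKM at 24-HAI, against 89 in dry seeds. The difference was present on each side of the step. Before it, 50% of the sum was carried by 3.68% of genes at 24-HAI and by 1.16% in dry seeds, and past it by 3.76% at 24-HAI and by 1.27% in dry seeds. FPKM in a column need not add up to a fixed total, and here the dry column summed to 1.73 times the 24-HAI column.

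**Figure D2:**
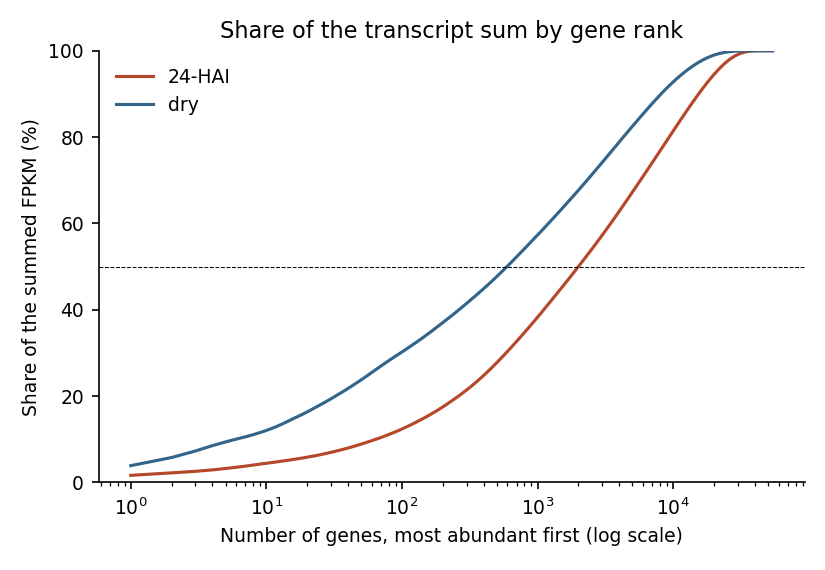
Share of the summed FPKM (vertical axis, percent) held by the most abundant genes (horizontal axis, number of genes, log scale) at 24-HAI and in dry seeds. The 24-HAI line runs below the dry line, and the lines cross 50% (dashed) at 2000 and 596 genes.

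The classes held unequal parts of these sums. Gained genes made up 14.9% of the sum at 24-HAI, against 0.235% in dry seeds. Kept genes that were down made up 13.2% at 24-HAI, against 69.0% in dry seeds, and kept genes that were up made up 28.8% at 24-HAI, against 3.03% in dry seeds. Lost genes were a small part at either end, 0.129% at 24-HAI and 1.16% in dry seeds.

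The more abundant a transcript was in dry seeds, the more often it was down at 24-HAI. Before the step, 72 genes had at least 1000 FPKM in dry seeds and all 72 were down, with a median 88.6-fold lower level. Of the 1170 genes between 100 and 1000 FPKM in dry seeds, 816 (69.7%) were down and 7 up. Of the 7217 genes between 10 and 100 FPKM, 3438 (47.6%) were down and 348 (4.82%) up, and of the 7500 genes between 1 and 10 FPKM, 1299 (17.3%) were down and 2172 (29.0%) up. The order was the same past the step, with 16 of 17, 172 of 300 (57.3%), 906 of 2834 (32.0%) and 493 of 4892 (10.1%) genes down in the same classes. The dry value both sets the class and enters the ratio, which favours down calls at high dry levels. How far values would move between replicates of one time point could not be measured here. None of the 89 genes at 1000 FPKM or more in dry seeds was below 1 FPKM at 24-HAI: 20 were between 1 and 10, 44 between 10 and 100, 24 between 100 and 1000, and 1 was still above 1000 FPKM.

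**Figure D3:**
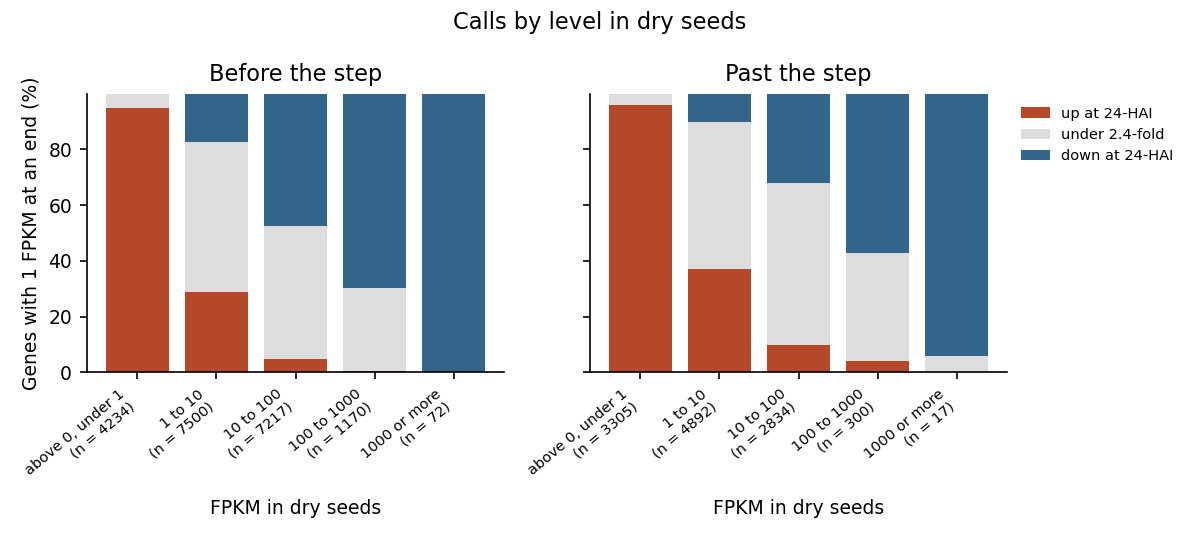
Share of genes (vertical axis, percent of genes with 1 FPKM at an end) that were up, under 2.4-fold or down at 24-HAI, by FPKM in dry seeds (horizontal axis), before and past the step. Down calls grow with the dry level on both sides, to 72 of 72 genes before the step and 16 of 17 past it.

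The lists of the most abundant genes overlapped in part. Of the 100 most abundant genes at 24-HAI, 65 were up, 6 were down, 29 were under 2.4-fold, and 23 were below 1 FPKM in dry seeds. Of the 100 most abundant genes of dry seeds, 1 was up, 95 were down and 4 were under 2.4-fold, and their median was 30.1 FPKM at 24-HAI, against 1889 FPKM in dry seeds. Each list was chosen by the value at its own end, which also enters the ratio. This choice favours up calls in the 24-HAI list and down calls in the dry list. In all, 11 genes (11% of each list) were among the 100 most abundant at both ends, and 357 (35.7% of each list) among the 1000 most abundant. Such lists are small parts of the 54154 genes, so unrelated lists would share far fewer members. Ranks in dry seeds also carry the step. Past the step lay 38 of the 100 most abundant genes at 24-HAI, against 19 of the 100 of dry seeds. Across genes with 1 FPKM at an end, Spearman's rho between 24-HAI and dry seeds was 0.51 before the step (20706 genes) and 0.48 past it (11834 genes). Genes are not independent replicates, and all points share the same pooled columns.

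Gained genes mostly reached low levels. Their median was 3.41 FPKM at 24-HAI (quartiles 1.81 and 7.16), against 0.171 FPKM in dry seeds (0.0362 and 0.479). At 24-HAI 1463 of the 8555 (17.1%) had 10 FPKM or more, 70 had 100 or more, and 3 had 1000 or more. The gain was staggered over the course. Before the step, 837 of the 4747 gained genes (17.6%) first had 1 FPKM or more at 3-HAI. The time point of first reaching it was 6-HAI for 882 (18.6%), 12-HAI for 1108 (23.3%) and 24-HAI for 1920 (40.4%). Past the step the share at 3-HAI was 32.6% (1234 of 3791), and that at 24-HAI 31.0% (1174). The largest single share before the step thus crossed the limit in the last interval, which is also the longest, whereas past the step the first interval, which contains the change of scale, held slightly more. A second crossing of the limit was seen in 222 gained genes (2.59%).

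In dry seeds 1002 gained genes were listed at 0. Dry seeds also had the fewest mapped reads of the course, and the part of depth in these zeros was not tested. An exact 0 in this table can stand beside a high value: 21 genes had a 0 at one time point and at least 10 FPKM at a neighbouring one, 18 of them gained. A listed 0 was therefore not read as absence and no fold is printed against it, but all 1002 genes count as gained and as up. Without genes listed at 0 at an end, 7553 genes were gained and 11851 up. At 24-HAI the 1002 genes had a median of 2.43 FPKM, against 3.56 FPKM for the 7553 gained genes with a dry value above 0.

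Lost genes were few and of low level in dry seeds. Their median was 0.502 FPKM at 24-HAI (quartiles 0.226 and 0.741), against 2.61 FPKM in dry seeds (1.504 and 5.96). In dry seeds 249 of the 1556 (16.0%) had 10 FPKM or more, 13 had 100 or more, and the highest had 489 FPKM. At 24-HAI 8 were listed at 0. The largest share of losses fell in the last interval, which is also the longest. Before the step 554 of 1096 (50.5%) were below 1 FPKM for the first time at 24-HAI. The counts were 205 (18.7%) at 3-HAI, 159 (14.5%) at 6-HAI and 178 (16.2%) at 12-HAI. Past the step 298 of 434 (68.7%) were first below the limit at 24-HAI and 25 (5.76%) at 3-HAI. There the first interval contains the change of scale. On the scaffolds outside the 20 chromosomes, 26 of 97 genes with 1 FPKM at an end were lost and 17 gained, a share of lost genes (26.8%) above that on the chromosomes, in a small number of genes.

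Lost genes were short. Their loci had a median span of 1950 bases, against 3827 bases over all genes with 1 FPKM at an end, and gained genes had 3444 bases. Before the step 16.0% of transcribed loci under 1 kb were lost (252 of 1576), 10.3% of those between 1 and 2 kb, 3.96% of those between 2 and 5 kb and 2.59% of those of 5 kb and over. Past the step the same shares were 12.4%, 7.16%, 2.97% and 1.24%. Down calls before the step were also most frequent under 1 kb (36.8%, against 26.5% at 5 kb and over), while up calls differed less (34.6% and 30.3%). The span includes introns and is not the transcript length that FPKM divides by, and a short transcript rests on fewer fragments at the same FPKM. The part of length in these shares was not tested.

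Among kept genes, down calls were more frequent than up calls before the step and less frequent past it. The median log2 ratio of 24-HAI to dry seeds over kept genes, with no value added, was -0.44 before the step and 0.34 past it, so no direction is given for kept genes as a whole. In all, 4651 kept genes were up, 5922 down and 11953 under 2.4-fold. Kept genes that were up had a median of 15.4 FPKM at 24-HAI, against 2.81 FPKM in dry seeds, and those that were down had 6.37 FPKM at 24-HAI, against 34.4 FPKM in dry seeds. The changes were spread over the course. Before the step, the medians of kept genes that were down were 35.8, 27.2, 19.0, 13.8 and 6.59 FPKM at 0, 3, 6, 12 and 24 hours, and those of kept genes that were up were 2.81, 3.73, 6.06, 8.997 and 15.6 FPKM. Of 4326 genes before the step that were down and had at least 10 FPKM in dry seeds, 2108 (48.7%) passed the halfway level on the log2 scale at 12-HAI. Another 257 (5.94%) did so at 3-HAI, 968 (22.4%) at 6-HAI and 993 (23.0%) at 24-HAI. For the 2508 up genes with at least 10 FPKM at 24-HAI the counts were 231 (9.21%), 568 (22.6%), 905 (36.1%) and 804 (32.1%) at 3, 6, 12 and 24-HAI. Past the step, where the dry values change scale, 736 of 1094 down genes (67.3%) passed halfway only at 24-HAI.

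**Figure D4:**
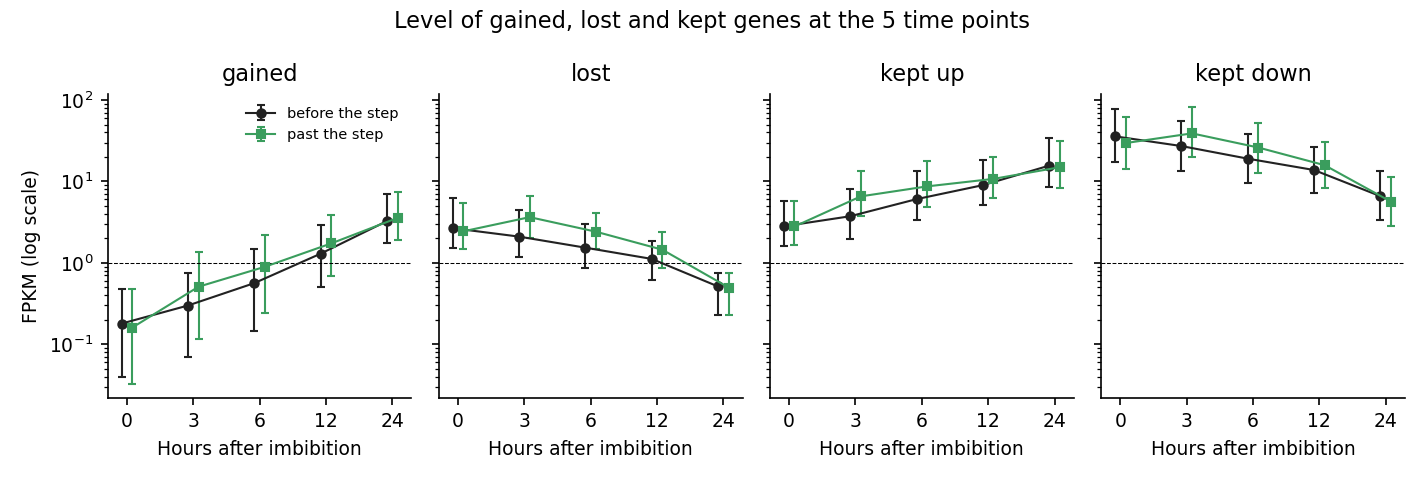
Median FPKM (vertical axis, log scale; bars, quartiles over genes) of gained, lost, kept up and kept down genes at 0, 3, 6, 12 and 24 hours (horizontal axis, not to scale), before and past the step; the dashed line is 1 FPKM. Kept down genes before the step have a lower median at each time point than at the one before (6.59 at 24 hours, against 35.8 at 0 hours), whereas the same class past the step has a higher median at 3-HAI (38.9) than at 0 hours (29.6).

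Folds of called genes are given for each side, though the limit of 2.4 itself bounds them from below. Up genes with a dry value above 0 had a median 9.59-fold higher level at 24-HAI before the step and 9.34-fold past it, and down genes a median 4.83-fold lower level before and 4.67-fold past it. Before the step 122 down genes with at least 10 FPKM in dry seeds fell 100-fold or more, and 337 up genes with at least 10 FPKM at 24-HAI rose 100-fold or more. Equal ends did not always mean a flat course. Before the step 3783 kept genes had ends within 1.5-fold of each other, and 98 of them (2.59%) had a value in between at least 2.4 times both ends, 58 of these with the peak at 3-HAI. Past the step the count was 225 of 2147 (10.5%), in values that contain the change of scale.

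Neighbouring genes were somewhat more often in the same class. Among pairs of adjacent transcribed genes before the step, the gene after a gained gene was gained in 790 of 2848 pairs (27.7%), against 23.2% of all pairs, and the gene after a lost gene was lost in 60 of 693 pairs (8.66%), against 5.56%. Past the step the shares were 37.3% against 32.4% for gained and 6.69% against 3.77% for lost genes. Neighbours can be copies of each other or parts of 1 merged locus, so pairs are not independent. The longest run of adjacent gained genes had 7 members, past the step on chromosome 17 between 5589110 and 5642812. Its genes had 1.62 to 7.97 FPKM at 24-HAI, against at most 0.363 FPKM in dry seeds. In all 51 runs held 4 or more gained genes, and 1 run, on chromosome 10, held 4 lost genes. Of genes with 1 FPKM at an end 26.2% were gained and 4.77% lost, so more runs of gained genes follow from their number alone.

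Genes with a role given in the text of the study numbered 34, in 5 groups. Of these, 13 were up (38.2%, against 39.4% of all genes with 1 FPKM at an end), 6 were down (17.6%, against 22.2%) and 15 were under 2.4-fold; 5 were gained and 0 lost. The median log2 change, computed as log2((FPKM + 1)/(FPKM + 1)), was 0.71, against 0.42 over all 32637 genes. The study chose these genes on these samples, so their directions are not independent evidence. All 19 calls among them held when the dry values on either side of the step were rescaled. Only the 4 up calls past the step and the 4 down calls before it could have been ended by these changes. The other calls held by construction. The 13 genes that lie past the step are named as such, because their dry level may be lower by the factor 2.04 relative to the others.

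Of 8 ABA genes, 5 were down and 1 was up, with a median log2 change of -2.52. These shares were 62.5% down and 12.5% up, against 22.2% and 39.4% of all genes with 1 FPKM at an end. A further gene that the study links to ABA signalling through its homolog, Glyma07g10695, was up and is counted with the growth genes below. The protein phosphatase HAI3 (Glyma01g43460, chromosome 1), a member of the ABA-induced phosphatases that restrain ABA signalling in Arabidopsis, had the lowest change, with 2.43 FPKM at 24-HAI, against 295 FPKM in dry seeds, a 122-fold lower level. Its course was 295, 139, 87.1, 29.5 and 2.43 FPKM at 0, 3, 6, 12 and 24 hours, lower at each time point. Both genes for ABI3, the transcription factor of seed maturation and dormancy, were down. Glyma08g47240 had 2.70 FPKM at 24-HAI, against 62.1 FPKM in dry seeds, 23.0-fold lower. Glyma18g38490, past the step, had 7.11 FPKM at 24-HAI, against 78.8 FPKM in dry seeds, 11.1-fold lower as deposited and 22.7-fold lower with the dry value raised by the step. The difference in fold between the ABI3 copies was thus of the size of the step.

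The ABI3 course depended on the same point. Glyma08g47240 had 62.1, 54.1, 50.9 and 26.3 FPKM at 0, 3, 6 and 12 hours, while Glyma18g38490 had 78.8, 143, 126 and 65.9 FPKM, with a higher value at 3-HAI than in dry seeds only in the copy past the step. The E3 ligase AIP2, which targets ABI3 for degradation in Arabidopsis, has 2 genes here, both past the step and both under 2.4-fold. Glyma17g33631 had 21.2 FPKM at 24-HAI, against 9.56 FPKM in dry seeds (2.22 times the dry level, and 1.08 times it with the dry value raised). Glyma14g12380 had 17.0 FPKM at 24-HAI, against 10.1 FPKM in dry seeds (1.69 times, and 0.825 times with the dry value raised), so its direction turned with the scale.

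The ABA-degrading 8′-hydroxylases moved in opposite directions. The CYP707A2 gene (Glyma09g41960) had 2.59 FPKM at 24-HAI, against 91.8 FPKM in dry seeds, a 35.5-fold lower level. The CYP707A1 gene (Glyma16g20490, past the step) was gained, with 14.2 FPKM at 24-HAI, against 0.0257 FPKM in dry seeds. It stayed below 0.2 FPKM through 6-HAI (0.160 FPKM) and had 3.04 FPKM at 12-HAI. Its ratio of 552 rests on a dry value close to 0, and was 270 with that value raised. The PYL gene Glyma16g02910, an ABA receptor past the step, had 16.9 FPKM at 24-HAI, against 58.4 FPKM in dry seeds, 3.46-fold lower and 7.08-fold lower with the dry value raised. Its call was lost when both columns were scaled to the same sum (log2 change -0.97, against -1.73 as deposited).

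Of 4 ethylene genes, all before the step, 1 was up, 1 was down and 2 were under 2.4-fold. Of all genes before the step with 1 FPKM at an end, 34.1% were up and 27.2% down. The ethylene receptor Glyma10g33240 was gained, with 14.7 FPKM at 24-HAI, against 0.745 FPKM in dry seeds, 19.7-fold higher. It was already at 11.9 FPKM at 3-HAI and at 22.3 FPKM at 12-HAI. The ethylene response factor gene Glyma02g08835, a transcription factor, had 7.56 FPKM at 24-HAI, against 72.9 FPKM in dry seeds, 9.65-fold lower. At 3-HAI it had 237 FPKM, a maximum that the ends do not show. The receptor genes of the ETR1 type were under 2.4-fold. Glyma09g00490 had 10.3 FPKM at 24-HAI, against 19.3 FPKM in dry seeds. Its log2 change was -0.84 as deposited, -1.30 and past the limit under median-ratio scaling, and 0.12 with the dry values before the step lowered. Glyma12g37050 had 43.6 FPKM at 24-HAI, against 70.3 FPKM in dry seeds, values it shares with 3 neighbouring genes of the table (Glyma12g37026, Glyma12g37033 and Glyma12g37040). Its direction turned under scaling to the same sum (0.10, against -0.68 as deposited) and with the dry values before the step lowered (0.33).

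Of 9 genes named for growth and early signalling, 6 were up, 3 were under 2.4-fold and 0 were down, with a median log2 change of 2.39. The share of up genes was 66.7%, against 39.4% of all genes with 1 FPKM at an end, of which 22.2% were down. The THESEUS1 homolog Glyma12g22660, a receptor kinase that senses the cell wall in Arabidopsis, was gained, with 22.0 FPKM at 24-HAI, against 0.566 FPKM in dry seeds, 38.9-fold higher. The xyloglucan endotransglucosylase Glyma11g36730, an enzyme that remodels cell wall xyloglucan, had 14.5 FPKM at 24-HAI, against 1.36 FPKM in dry seeds, 10.6-fold higher. Its highest value lay between them, 105 FPKM at 3-HAI. The LOB domain genes, which encode plant transcription factors, behaved alike. Glyma07g10180 had 19.1 FPKM at 24-HAI, against 1.70 FPKM in dry seeds, after 96.0 FPKM at 3-HAI. Glyma13g07590, on chromosome 13 before the step, had 10.04 FPKM at 24-HAI, against 1.23 FPKM in dry seeds, after 103 FPKM at 3-HAI and 124 FPKM at 6-HAI.

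Receptor-like kinases made up most of the rest of that group. The TMK1 homolog Glyma14g39290, past the step, had 10.3 FPKM at 24-HAI, against 1.16 FPKM in dry seeds, 8.92-fold higher and 4.36-fold higher with the dry value raised. Glyma07g10695 is a homolog of a kinase gene of Arabidopsis that has, according to the study, a positive part in ABA signalling. Glyma07g10695 had 33.6 FPKM at 24-HAI, against 3.90 FPKM in dry seeds, 8.61-fold higher. It shares all values with Glyma07g10710, so the 2 loci cannot be told apart, and its maximum was at 12-HAI (66.0 FPKM). The remaining kinases were under 2.4-fold at the ends. The brassinosteroid receptor homolog of BRI1, Glyma06g15270, had 11.2 FPKM at 24-HAI, against 6.16 FPKM in dry seeds. The extensin-like receptor kinase Glyma09g32390 had 14.95 FPKM at 24-HAI, against 9.54 FPKM in dry seeds, and the mitogen-activated kinase Glyma07g38510 had 9.21 FPKM at 24-HAI, against 6.30 FPKM in dry seeds. Each of these 3 had its highest value at 3-HAI, 24.6, 39.2 and 37.7 FPKM, and each passed the limit when the dry values before the step were lowered.

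Of 3 genes of sucrose and lipid metabolism, all past the step, 1 was up, against 48.7% of all genes there with 1 FPKM at an end. The malate synthase Glyma17g13730, an enzyme of the glyoxylate cycle that turns fatty acid carbon towards sugar, had 24.1 FPKM at 24-HAI, against 3.04 FPKM in dry seeds, 7.92-fold higher and 3.88-fold higher with the dry value raised. It had 32.4 FPKM at 12-HAI. The sucrose-phosphate synthase Glyma13g23060, which makes the precursor of sucrose, had 17.9 FPKM at 24-HAI, against 38.8 FPKM in dry seeds, 2.17-fold lower and 4.43-fold lower with the dry value raised, which would pass the limit. The sucrose-phosphate phosphatase Glyma20g16990, the enzyme of the next step, had 17.8 FPKM at 24-HAI, against 16.7 FPKM in dry seeds, and its direction turned with the dry value raised (0.521 times the dry level).

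Of 10 genes of the shikimate, aromatic amino acid and folate pathways, 4 were up, 6 were under 2.4-fold and 0 were down. The share of up genes, 40%, was close to the 39.4% of all genes with 1 FPKM at an end, of which 22.2% were down. The median log2 change was 0.79, against 0.42 over all these genes. The DAHP synthase Glyma15g06020, which opens the shikimate pathway, lies past the step and shares its values with Glyma15g06030. It had 37.9 FPKM at 24-HAI, against 78.3 FPKM in dry seeds, 2.07-fold lower and 4.22-fold lower with the dry value raised, which would pass the limit. The log2 change, -1.03 as deposited, was -0.25 under scaling to the same sum. The shikimate kinase Glyma04g39700 had 12.5 FPKM at 24-HAI, against 3.32 FPKM in dry seeds, 3.76-fold higher. The chorismate synthase Glyma20g31980, past the step, had 45.0 FPKM at 24-HAI, against 24.0 FPKM in dry seeds, and 0.917 times the dry level with the dry value raised.

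Branches after chorismate differed gene by gene. The chorismate mutase Glyma01g06660, which leads to phenylalanine and tyrosine, had 8.02 FPKM at 24-HAI, against 14.2 FPKM in dry seeds, under the limit. Its log2 change was -0.75 as deposited, -1.20 and past the limit under median-ratio scaling, and 0.18 with the dry values before the step lowered. The arogenate dehydrogenase Glyma11g35760, the tyrosine branch enzyme, was gained, with 6.20 FPKM at 24-HAI, against 0.0615 FPKM in dry seeds. The arogenate dehydratases, of the phenylalanine branch, were unlike each other. Glyma17g05290, past the step, had 14.7 FPKM at 24-HAI, against 1.85 FPKM in dry seeds, 7.93-fold higher and 3.88-fold higher with the dry value raised. Glyma11g15750 had 22.0 FPKM at 24-HAI, against 31.4 FPKM in dry seeds, under the limit and of a direction that turned under scaling to the same sum (0.27, against -0.49 as deposited) and with the dry values before the step lowered (0.49).

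In the folate branch, the 4-amino-4-deoxychorismate lyase Glyma12g35520 was gained, with 6.28 FPKM at 24-HAI, against 0.0412 FPKM in dry seeds. At 12-HAI it had 1.07 FPKM. The aminodeoxychorismate synthases, which act before it, were under 2.4-fold. Glyma10g35580 had 11.3 FPKM at 24-HAI, against 6.49 FPKM in dry seeds. Glyma20g31966, past the step, had 1.84 FPKM at 24-HAI, against 1.36 FPKM in dry seeds, and its direction turned with the dry value raised, under median-ratio scaling and under quantile normalization.

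**Figure D5:**
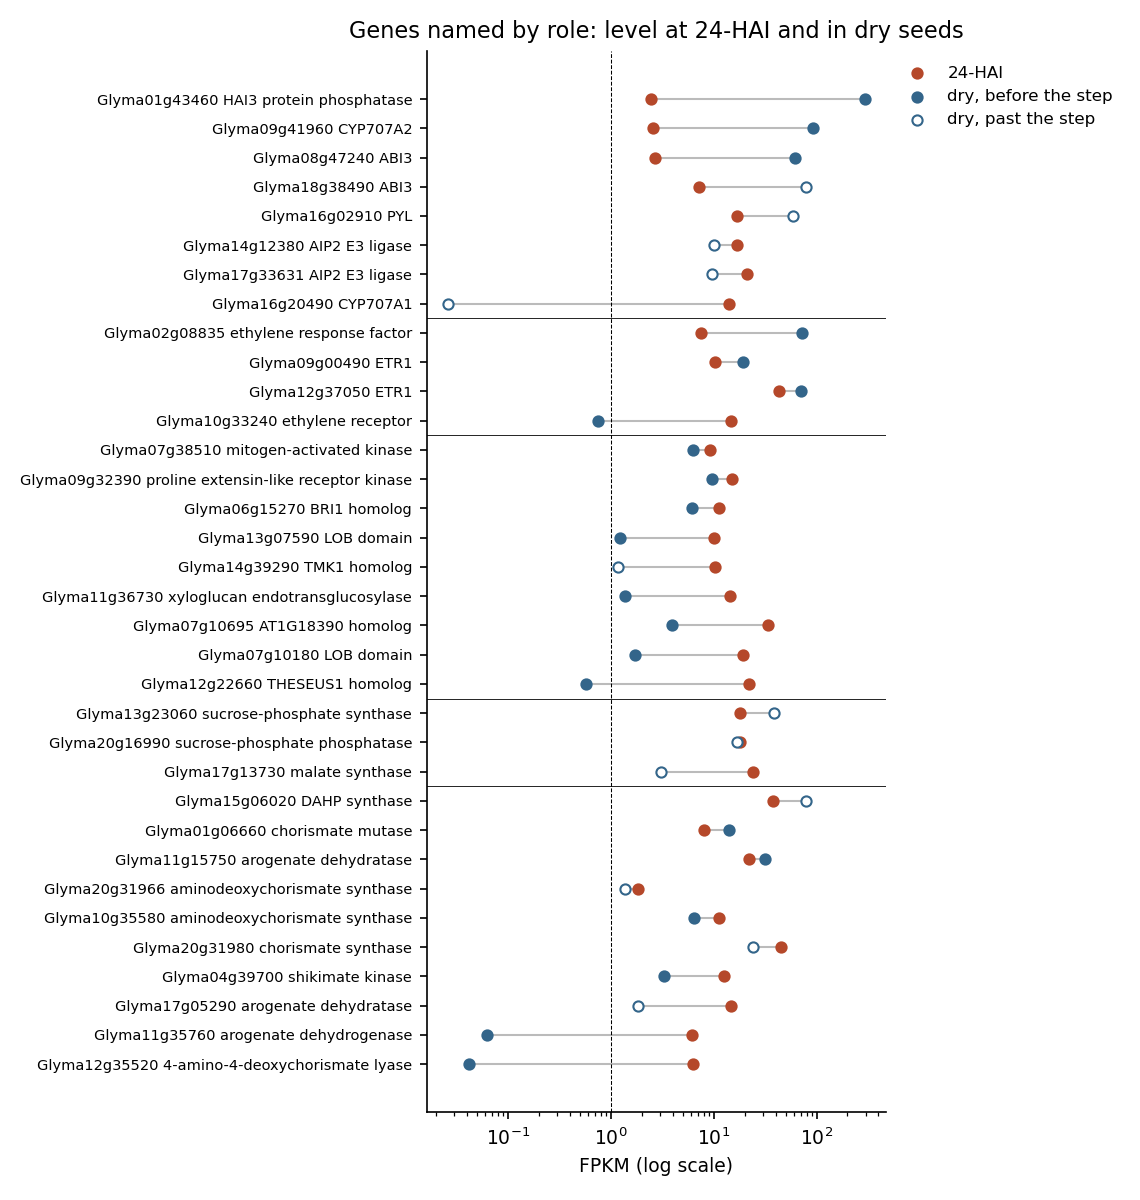
FPKM (horizontal axis, log scale) at 24-HAI and in dry seeds of the 34 genes named by role, in 5 groups separated by lines (from top: ABA, ethylene, growth, metabolism, aromatic pathways); open points are dry values past the step, and the dashed line is 1 FPKM. The 5 ABA genes that were down lie at the top, with HAI3 at 2.43 against 295 FPKM, and the 6 growth genes that were up have their 24-HAI points to the right of the dry points.

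The largest changes were in genes that carry no name in the sources used here. Glyma03g04131 (chromosome 3, 4108362 to 4110417) had 9799 FPKM at 24-HAI, the highest value of that column, and was listed at 0 in dry seeds and at 3-HAI, with 4112 FPKM at 6-HAI. A gene listed at 0 beside such a value is one of the 21 mentioned above, and no fold is given. It ranks first by log2(FPKM + 1), which treats the listed 0 as a value. Glyma17g02260 (chromosome 17, 1453405 to 1456485, past the step) had 1970 FPKM at 24-HAI, against 0.602 FPKM in dry seeds, 3273-fold higher and 1601-fold higher with the dry value raised. Its course was 0.602, 1.17, 15.3, 362 and 1970 FPKM at 0, 3, 6, 12 and 24 hours, higher at each time point.

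The largest falls were in abundant transcripts of the dry axis. Glyma01g29480 (chromosome 1, 39799516 to 39801235) had 9.52 FPKM at 24-HAI, against 4543 FPKM in dry seeds, a 477-fold lower level. Glyma08g08441 (chromosome 8, 6044677 to 6045129) had 3.21 FPKM at 24-HAI, against 1423 FPKM in dry seeds, a 443-fold lower level, from a locus that spans 453 bases. Both were lower at each time point than at the one before, with 271 and 94.4 FPKM at 12-HAI, and both lie before the step.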

How the data were processed

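Values were analysed for 2 replicates at 24-HAI and 2 of dry seeds, pooled per time point. The authors trimmed reads with Trimmomatic 0.30, mapped them with TopHat2 2.0.9 and Bowtie2 2.1.0 to version 1.1 of the G. max genome, and deposited FPKM estimated with Cufflinks. How the replicates were combined is not given in the sources used here. For 647 genes with 2 entries the entry with the higher maximum was kept, which gives 54154 genes from 54801 entries. All values of 4605 genes are shared with another gene. No value was added for ratios, and 1 FPKM was added for single log2 changes. The step was placed where 2 means left the smallest squared deviation of log2 dry over 3-HAI along chromosomes 1 to 20. The code of this search was checked on a planted step, and that of the calls on planted 4-fold changes. The changes planted for the calls carried no noise, so that check covers the code only. Named genes are those whose identifier and role the study's text gives, the 2 largest rises and 2 largest falls on the log2(FPKM + 1) scale with at least 10 FPKM, and genes that share their values. The members and lists were chosen with earlier results of these data known. Python 3.11.15, numpy 2.4.6, pandas 2.3.3, scipy 1.17.1 and matplotlib 3.10.9 were used. Alternatives changed the expression limit, the fold limit, the pseudocount, the filter, the scaling and the handling of double entries. Promoter, protein and other sequences were not used here.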

Additional observations from a re-analysis of the deposited data

How the results depend on the processing

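No paired analysis was possible because the table holds 1 pooled value per time point, and for the same reason no replicate could be left out. As deposited, 8555 genes were gained, 1556 lost, 12853 up and 7254 down. Dropping the filter on low values gave 21954 genes up, and a fold limit of 4 gave 4388 down. Scaling both columns to the same sum gave 958 lost and 4121 down, and a median log2 change of kept genes of 0.52, against -0.16 as deposited, so this median changed sign. Quantile normalization gave 4276 gained and 4276 lost genes, which is equal by construction. Leaving out genes listed at 0, leaving out loci under 1 kb, and both rescalings of the dry values around the step were chosen after seeing the data. Lowering the dry values before the step gave 4257 down and raising those past it 8993, with 15698 and 11248 up. The median log2 change of kept genes was 0.36 with the dry values before the step lowered, and -0.45 with those past it raised, so its sign rests on the scale of the dry column. Lost genes numbered between 958 and 4276 over all alternatives run, and gained genes between 4276 and 10535. No alternative turned the direction of a called named gene. Scaling to the same sum ended 1 call of 23, that of the PYL gene Glyma16g02910, and the other scalings ended none. Calls of named genes were made without a pseudocount, so the setting of 0.1 FPKM altered only their log2 changes. New calls among the other 15 named genes numbered 7 under scaling to the same sum, 4 under median-ratio scaling and 2 under quantile normalization. The fragments behind a value near 1 FPKM are not given per gene, so its precision is unknown here.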

Other observations

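Of the genes below 1 FPKM at both ends, 721 (3.35% of 21517) reached 1 FPKM at a time point between them, and 6 reached 10 FPKM. Of the 22526 kept genes, 22081 (98.0%) had at least 1 FPKM at all 5 time points. Loci listed at 0 at one time point and at 100 FPKM or more at a neighbouring one numbered 8, of which 7 were gained. Genes that were up at 24-HAI and had 1000 FPKM or more there numbered 9 of 12, and 3 of the 12 were below 1 FPKM in dry seeds.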
